A study of Mus musculus with 384 samples.

Results

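The genes described here encode the enzymes that write, maintain and remove DNA methylation, the Polycomb repressive complexes, the heterochromatin proteins and histone H3 lysine 9 (H3K9) methyltransferases, and the complexes that deacetylate histones or move nucleosomes. They are 38 listed genes, all found by their Ensembl identifiers among the 49585 genes of the deposited count table, and they fall into 7 groups by role. The study sequenced single mouse mammary cells with Smart-seq2, a full-length protocol that primes on the poly(A) tail, on a plate of 384 wells. The embryonic gate came from the dissected skin with its mammary buds of female Lgr5-EGFP-IRES-CreER embryos at embryonic day 14 and was sorted as CD49f Hi/Lgr5 Hi, the green reporter of that line standing at Lgr5, which encodes a Wnt-pathway receptor. The basal and the luminal gate came from adult mammary glands of Rosa-tdTomato mice, sorted as CD24+CD29Hi and CD24+CD29Lo. In all gates the sort removed dead cells and those with CD45 (blood cells), CD31 (endothelium) or CD140a (mesenchyme). The labels give neither the age of the adults nor the number of embryos or adults, and they tie no well to an animal.

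A well of a single cell was kept at 50000 or more reads on genes, which left 347 of 376. A well of 50 cells from each gate is described beside the single wells as a separate library. Because no animal is named, each gate is 1 sample, wells are not replicates of a condition, and no test was made. Levels are reads summed over the kept wells of a gate per 1000000 gene reads of that gate (CPM). A fold is a ratio of such levels with an exact 95% interval, which covers counting error only, since reads amplified without molecular identifiers do not stand for separate molecules, and differences between animals are not in it. In a well of 50 cells, fewer cells with a transcript and less of it per cell cannot be told apart.

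DNA methylation at CpG sites is copied to the new strand after replication by Dnmt1, which Uhrf1 brings to hemimethylated DNA, while Dnmt3a and Dnmt3b methylate unmethylated sites and the Tet enzymes oxidise the methyl group. Polycomb repressive complex 2 (PRC2) methylates histone H3 at lysine 27 through Ezh2 or Ezh1, and complex 1 (PRC1) ubiquitinates histone H2A through Ring1 or Rnf2 and reads the PRC2 mark through Cbx proteins. Heterochromatin carries methylated H3K9, bound by the HP1 proteins that Cbx1, Cbx3 and Cbx5 encode. Several of these genes, among them Dnmt1, Uhrf1, Hells and Ezh2, are known to be transcribed with the replication programme that E2F factors switch on in dividing cells.

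Promoter stretches are shown for 5 members that maintain DNA methylation (Dnmt1, Uhrf1 and Hells), methylate H3K9 (Suv39h1) or carry the PRC2 activity (Ezh2), each with a match to the letters of an E2F site and each at least 4-fold above basal cells in the embryonic gate; they were picked after these values were seen. The letters searched were TTTNNCGC with C or G at each N, the form in which E2F sites are usually written, on both strands of the RefSeq promoter table of GRCm38.p6, from 250 bases before to 50 after each start. The capitals mark the match, each line is the strand of the gene, and stretches that reach an annotated exon are limited to 30 bases.
Dnmt1, chr9:20952824-20952853, minus strand: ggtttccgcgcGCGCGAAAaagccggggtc
Uhrf1, chr17:56304082-56304181, plus strand: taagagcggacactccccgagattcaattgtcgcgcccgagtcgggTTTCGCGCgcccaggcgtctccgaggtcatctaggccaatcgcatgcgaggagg
Hells, chr19:38930917-38930946, plus strand: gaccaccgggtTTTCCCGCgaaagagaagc
Suv39h1, chrX:8074372-8074471, minus strand: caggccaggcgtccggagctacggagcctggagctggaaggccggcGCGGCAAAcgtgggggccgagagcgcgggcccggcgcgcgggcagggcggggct
Ezh2, chr6:47595009-47595038, minus strand: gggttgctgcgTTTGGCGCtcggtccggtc
In Dnmt1 and Suv39h1 the match shown lies on the other strand and reads TTTCGCGC and TTTGCCGC there. Dnmt1 had a further match that is not shown, TTTGGCGC on the gene strand, at bases 34 to 41 past its listed start. The Ezh2 match also lies past the start, at bases 4 to 11, and the other matches shown lie before it. The table held 35 of the 38 genes, without Cbx2, Hdac1 and Chd7, and 9 of the 35, or 25.7%, had a match at 1 or more of their listed starts. The other members with one were Suz12, Phf19, Cbx3 and Arid1a. Of all 27025 genes listed there, 704, or 2.6%, had one, and of the other chromatin genes described further on 3 of 95 did. A match of letters is a description and not a bound site.

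Kept embryonic wells had a median of 697578 gene reads (52687 to 1836609), basal wells 450196 (52500 to 1466484) and luminal wells 525176 (63571 to 1595858), and the 3 wells of 50 cells had 532820 to 621792. A median well had reads on 5515, 2798 and 3643 genes in the same order, so the embryonic wells held more genes as well as more reads. By rank correlation with the wells of 50 cells, all kept wells but 1 embryonic, 10 basal and 3 luminal ones were closest to their own gate, and 8 of the 10 basal exceptions were closest to the luminal one. Fibroblast markers summed to 3923 CPM in the embryonic, 2516 in the basal and 75.8 in the luminal gate, with at least 3 of 8 markers in 26 embryonic and 8 basal wells. The embryonic and basal sums came mostly from different markers. Col1a1, Col1a2 and Col3a1 had 613, 1490 and 1220 CPM in the embryonic gate and 0.788, 11.7 and 45.7 in the basal gate. Postn and Dcn had 1475 and 924 CPM in the basal gate and 56.2 and 316 in the embryonic gate. Of the 8 markers, 5 were at least 2-fold higher in embryonic than in basal cells and 2 were lower. Endothelial markers summed to 403 CPM in the basal gate and at most 10.5 in the others. Without the wells that matched another gate or held 3 such markers, 26 of 36 measured members were at least 2-fold higher in the embryonic than the basal gate (37.3% of all genes) and 23 of 38 than the luminal gate (38.7%). The 4 wells without a cell held 1 read on these 38 genes.

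The chromatin genes as a group took a larger share of the embryonic transcriptome than of either adult one. Their summed level was 6401 CPM in the embryonic, 2333 in the basal and 2171 in the luminal gate. Over single embryonic wells the sum ran from 2231 over a median of 6419 to 11122 CPM. Over basal wells it ran from 16.9 over a median of 2102 to 7444, and over luminal wells from 279 over 2090 to 5483. The ranges overlapped, but the middle embryonic well was above the highest luminal well. The wells of 50 cells gave 3878, 2037 and 1040 CPM, in the same order. With every well thinned at random to 50000 reads, and a gene called detected at 5 reads, an embryonic well had a median of 14 of the 38 genes (4 to 26), a basal well 4 (0 to 14) and a luminal well 5 (1 to 18). Over all genes of the table the same medians were 2219, 1276 and 1563.

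Against the basal gate, 36 members were measured, meaning 5 CPM or more in either gate, and Phf19 and Ring1 were not. In the embryonic gate 25 of the 36 (69.4%) were at least 2-fold higher, where 33.8% of the 12808 measured genes were. Ezh1 alone was at least 2-fold lower, where 19.4% of all genes were. The median log2 ratio, with a prior of 1 CPM in both gates, was 1.45 for the members and 0.38 for all genes. With that all-gene median subtracted, 19 members were still at least 2-fold higher against 26.2% of all genes, and Ezh1 and Cbx7 were lower against 25.3%. In the wells of 50 cells, 21 of 37 measured members were at least 2-fold higher (37.6% of all genes) and 4 lower (30.5%). In both libraries at once, 16 of the 35 members measured in both were higher (19.6% of all genes) and 1, Ezh1, was lower (12.2%). The 2 libraries gave opposite signs for 5 of the 35. For opposite signs no share of all genes is given, here or in the 2 comparisons that follow, so these counts are not read as particular to the members.

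Against the luminal gate all 38 members were measured, and 23 (60.5%) were at least 2-fold higher in the embryonic gate, where 39.3% of the 12679 measured genes were. Phf19 alone was at least 2-fold lower, where 17.6% of all genes were, and all of its luminal reads lay in well 80. The median log2 ratio was 1.47 for the members and 0.58 for all genes. With the all-gene median subtracted, 18 members were at least 2-fold higher (28% of all genes) and Phf19, Ezh1 and Ring1 were lower (25.8%). The wells of 50 cells had 23 of 38 members higher (44.1%) and 2, Cbx7 and Chd7, lower (22.2%). In both libraries 20 of 38 were higher (27.8%), none was lower (11.7%), and 8 had opposite signs. This comparison shares the embryonic wells with the previous one, so the counts of the pair are not independent.

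Between the adult gates the median member lay close to the median gene in single wells, and smaller shares of the members than of all genes passed 2-fold in either direction. Of 34 measured, 5 (14.7%) were at least 2-fold higher in the basal gate, namely Dnmt3a, Tet1, Ezh2, Cbx3 and Suv39h1, where 28.3% of the 11885 measured genes were. Dnmt1 and Eed were at least 2-fold lower, where 21.3% of genes were. The median log2 ratio was 0.18 for the members and 0.14 for all genes. Scaled to the spike-in reads in place of gene reads, an alternative chosen after the data were seen, the split was 2 higher (15.9% of all genes) and 13 lower (42.1%), with the all-gene median at -0.74. In the plate rows that hold both gates, 24 basal and 17 luminal wells, 13 of 34 were higher (32.9% of all genes) and 4 lower (32%), with a member median of 0.56 and an all-gene median of 0.02. The wells of 50 cells had 14 of 31 measured members higher in the basal well (40.8% of all genes), 8 lower (27%) and a member median of 0.85 where all genes had 0.48. Among them Cbx5, at 173 against 11.3 CPM, and Trim28, at 216 against 45.04 CPM, were nearly level in single wells, with log2 ratios of 0.21 and 0.13. In both libraries Tet1 and Suv39h1 were higher (17.2% of all genes) and Dnmt1 and Eed lower (10.2%), while 12 of the 31 had opposite signs. These 4 genes had few reads in the basal and luminal wells of 50 cells: 17 and 1 for Tet1, 16 and 6 for Suv39h1, 2 and 19 for Dnmt1, and 4 and 9 for Eed.

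**Figure D1:**
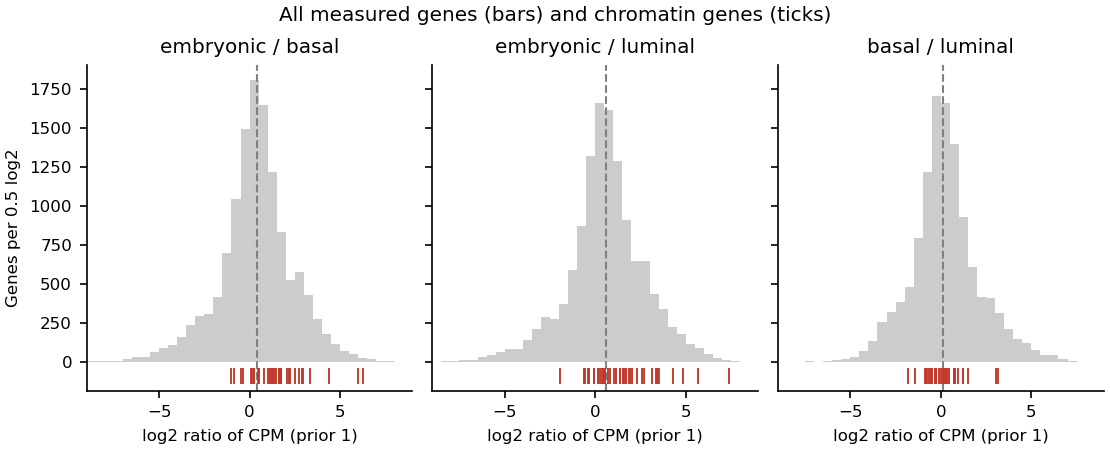
Number of measured genes (vertical axis, per 0.5 log2) by log2 ratio of CPM with a prior of 1 CPM (horizontal axis) for the 3 comparisons of gates. Grey bars are all measured genes, red ticks the measured chromatin genes, and the dashed line the all-gene median, at 0.38, 0.58 and 0.14 from left to right; the ticks sit mostly right of the line in the first 2 panels and on both sides of it in the third.

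**Figure D2:**
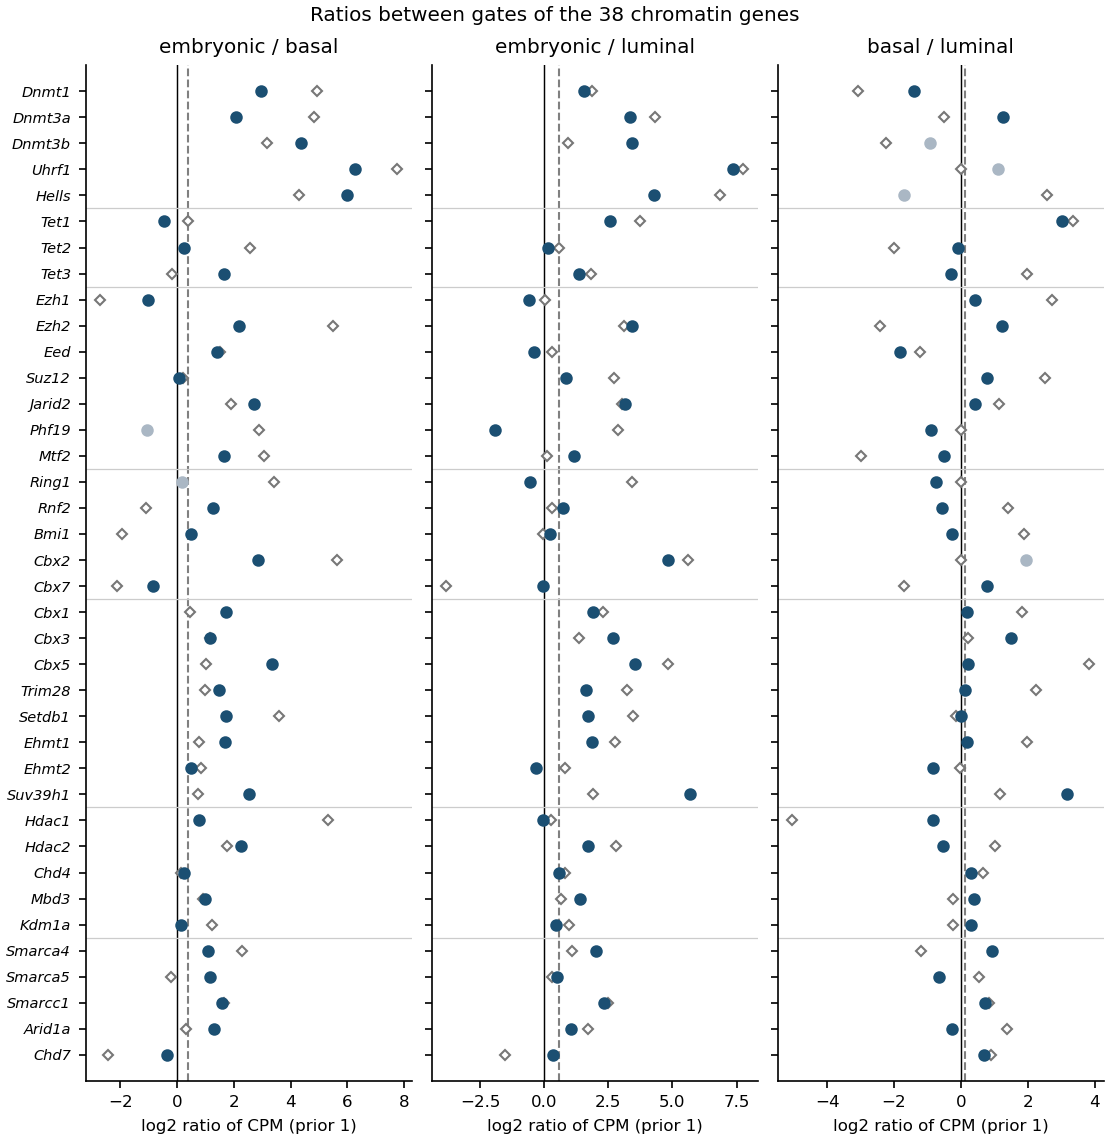
Log2 ratio of CPM with a prior of 1 CPM (horizontal axis) for each of the 38 genes (rows, in the 7 groups by role) in the 3 comparisons. Filled circles are single wells summed over the gate, pale ones members under 5 CPM in both gates, open diamonds the wells of 50 cells, the dashed line the all-gene median; all 5 genes of DNA methylation writing and maintenance lie right of that line in the first 2 panels.

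The genes that write and maintain DNA methylation showed the widest gap between embryo and adult of the 7 groups by median. All 5 were at least 2-fold higher in the embryonic gate than in either adult gate, with a median log2 ratio of 4.36 against basal and 3.43 against luminal cells. Of all measured genes 33.8% and 39.3% were, with medians of 0.38 and 0.58. Uhrf1, at chr17:56303321-56323486, ran from 0 over a median of 56.1 to 1468 CPM in single embryonic wells and had a read in 77.2% of them. It had a read in 3 basal wells, up to 70.1 CPM, and in 2 luminal wells, up to 42.6. The adult medians were therefore 0. All adult wells lay inside the embryonic range, since 29 embryonic wells were at 0 too, and the embryonic median of 56.1 CPM lay between the highest luminal and the highest basal well. The summed levels were 183, 1.39 and 0.117 CPM in the embryonic, basal and luminal gates, a fold of 131.5 (95% interval 104.97 to 167) against basal and 1565 (794 to 3625) against luminal cells, the last resting on 8 luminal reads. In the wells of 50 cells Uhrf1 was at 214 CPM in the embryonic one, with no read in either adult well.

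Hells, an SNF2-family remodeller needed for DNA methylation of repeats, was at 93.5 CPM in the embryonic, 0.477 in the basal and 3.82 in the luminal gate. It had a read in 76 embryonic, 5 basal and 6 luminal wells, with highest wells of 3132, 51.2 and 136.5 CPM. The fold was 196 (133.8 to 300.5) against basal and 24.5 (21.6 to 27.8) against luminal cells; without luminal well 73 the luminal log2 ratio moved from 4.29 to 5.66. Dnmt1, at chr9:20907209-20959888, was less unequal. Its single wells ran from 0 over 39.7 to 849 CPM in the embryonic gate, from 0 over 0 to 736 in the basal and from 0 over 0 to 1319 in the luminal gate, so the ranges overlapped fully while the middle wells did not. The summed levels were 182, 22.6 and 61.7 CPM, 8.07-fold (7.61 to 8.55) above basal and 2.95-fold (2.85 to 3.05) above luminal cells. Dnmt1 was also 2.74-fold (2.57 to 2.92) lower in basal than in luminal cells, but without luminal well 28 the log2 ratio of -1.41 became -0.96, under 2-fold.

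The 2 methyltransferases that act on unmethylated DNA had unlike levels. Dnmt3a was the more widely detected, with a read in 98.4% of embryonic wells, from 0 over a median of 413 to 3378 CPM. Basal wells ran from 0 over 0 to 1834 and luminal wells from 0 over 0 to 650. The embryonic middle well thus lay well above the adult ones, with overlap at the top. Its summed levels of 495.5, 115.8 and 48.1 CPM gave 4.28-fold (4.17 to 4.39) against basal and 10.3-fold (9.94 to 10.7) against luminal cells. The basal gate was 2.41-fold (2.31 to 2.51) above the luminal one in single wells, while the wells of 50 cells, with 3 and 4 reads, gave a log2 ratio of -0.51. Dnmt3b was at 24.0, 0.220 and 1.32 CPM, with a read in 39 embryonic, 2 basal and 4 luminal wells, and its luminal log2 ratio moved from 3.43 to 4.02 without luminal well 65. Per kilobase of exon, Uhrf1 was the most abundant of the 5 in the embryonic gate at 43.01 CPM, followed by Dnmt3a at 29.8, Dnmt1 at 24.7, Hells at 12.98 and Dnmt3b at 4.70.

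**Figure D3:**
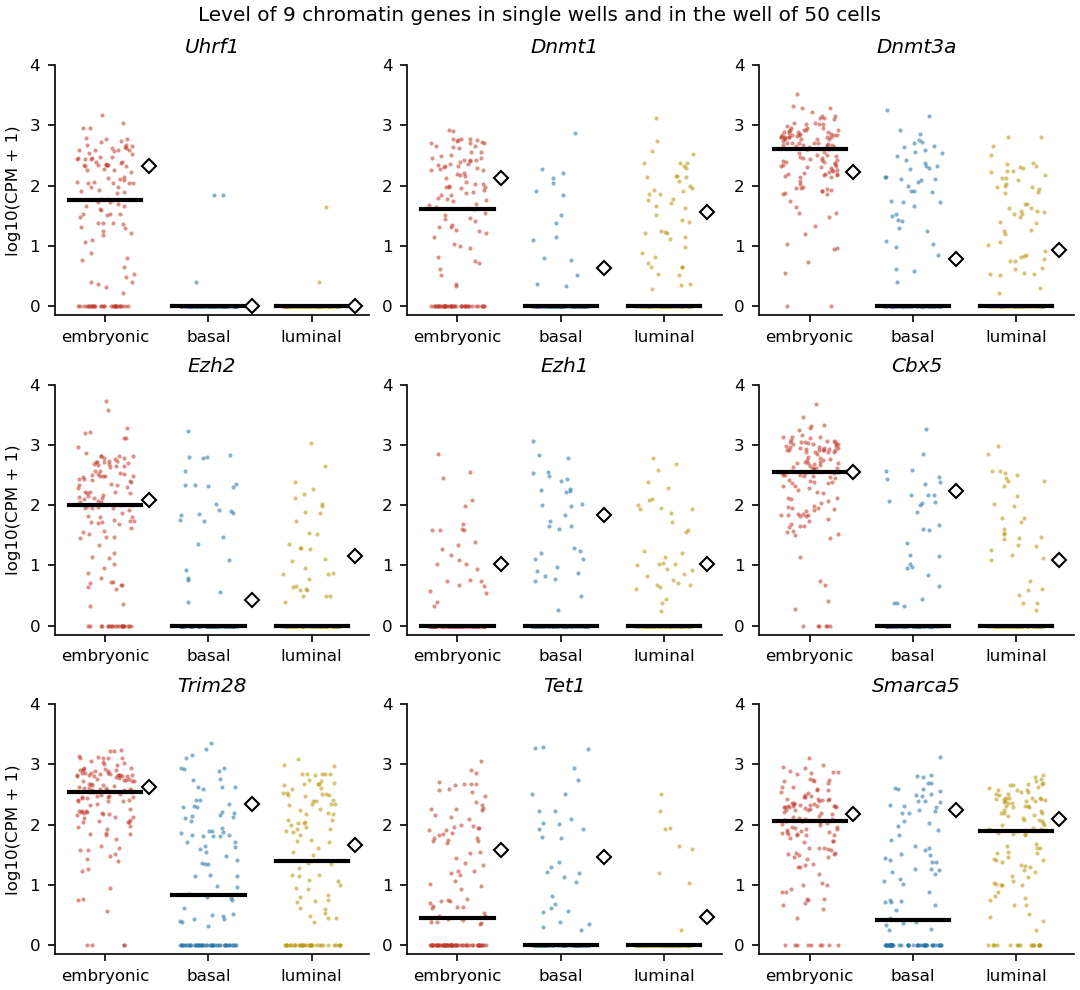
Level of 9 of the chromatin genes as log10(CPM + 1) (vertical axis) in single wells of the embryonic, basal and luminal gates (points), with the median well (bar) and the well of 50 cells (open diamond). The Uhrf1 points are at or near 0 in nearly all adult wells, the Dnmt3a, Cbx5 and Trim28 medians of the embryonic wells are at 413, 357 and 346 CPM, and the Ezh1 medians are at 0 in all 3 gates.

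The TET oxidases did not share a pattern. Tet3 in the embryonic gate was 3.21-fold (3.10 to 3.31) above basal and 2.59-fold (2.52 to 2.66) above luminal cells, at 259, 80.7 and 100.0 CPM, with medians of 167, 0 and 1.64 CPM over single wells. In the wells of 50 cells the basal level of Tet3, 174 CPM, was instead above the embryonic 154. Tet1 was at 51.2 CPM in the embryonic, 71.3 in the basal and 7.84 in the luminal gate. It was 6.54-fold (5.98 to 7.16) higher in embryonic and 9.10-fold (8.31 to 9.98) higher in basal than in luminal cells. Without luminal well 45 these log2 ratios moved from 2.56 to 3.48 and from 3.03 to 3.95. The basal to luminal gap of Tet1 in single wells rested on few wells. The median was 0 in both adult gates, with a read in 31 basal and 9 luminal wells. The top 5 wells held 77.2% of the basal and 95.3% of the luminal reads. Thinned to equal depth, Tet1 was detected in 10.2% of basal and 1.79% of luminal wells. The wells of 50 cells had the same order, at 28.2 against 1.88 CPM, though on 17 and 1 reads. Tet2 was nearly level between the single wells of the gates, at 70.6, 60.2 and 64.4 CPM. In the wells of 50 cells it was at 64.3, 9.97 and 43.2 CPM, with the embryonic well 6.45-fold (2.72 to 18.6) above the basal one on 40 and 6 reads.

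In PRC2 the catalytic subunits Ezh2 and Ezh1 had opposite signs against basal cells on the scale of gene reads, whereas with spike-in reads as the total the Ezh1 log2 ratio was 0.26. Ezh2, at chr6:47530139-47595341, ran from 0 over 100.8 to 5447 CPM in embryonic wells, from 0 over 0 to 1710 in basal and from 0 over 0 to 1095 in luminal wells. It had a read in 83.5% of embryonic wells but in 25.0% of basal and 29.5% of luminal ones. The summed levels were 270 CPM, 58.8 and 24.2, a fold of 4.60 (4.43 to 4.77) against basal and 11.2 (10.6 to 11.7) against luminal cells. Ezh2 in basal against luminal cells rested on few wells: the log2 ratio of 1.24 became 0.74 without basal well 31 and 2.14 without luminal well 49, and the wells of 50 cells gave -2.41 on 1 and 7 reads. The ratio against luminal cells, 3.43, became 4.32 without luminal well 49.

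Ezh1, the paralogue better known from cells that do not divide, was at 20.9 CPM in the embryonic, 43.96 in the basal and 32.4 in the luminal gate. It had a read in 27, 33 and 35 wells, with a median of 0 in each gate and highest wells of 716, 1149 and 610 CPM, so the groups overlapped throughout. The basal level was 2.10-fold (1.98 to 2.23) above the embryonic one, a log2 ratio of -1.04 that moved to between -0.99 and -0.81 without any 1 of 8 basal wells. Against luminal cells the ratio was -0.61, and -1.19 without embryonic well 72. In the wells of 50 cells Ezh1 was at 9.65, 68.1 and 9.38 CPM. Per kilobase, Ezh2 exceeded Ezh1 in the embryonic gate at 40.4 against 2.81 CPM, exceeded it less in the basal gate at 8.80 against 5.91 and was below it in the luminal gate at 3.63 against 4.36.

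The core partners of the enzymes differed, with Eed but not Suz12 passing 2-fold in single wells. Suz12, which stabilises the complex, was at 129.1, 123.2 and 72.01 CPM, under 2-fold in each comparison of single wells, and against luminal cells its log2 ratio of 0.83 became 1.04 without luminal well 73. In the wells of 50 cells Suz12 was 6.86-fold (3.75 to 13.7) higher in the embryonic and 5.97-fold (3.24 to 12.04) higher in the basal than in the luminal well. Eed, which binds the methyl mark, was at 55.96, 20.4 and 73.8 CPM. It was 2.75-fold (2.58 to 2.94) higher in embryonic and 3.63-fold (3.40 to 3.87) higher in luminal than in basal cells. The wells of 50 cells had the same order for the second pair, 6.64 against 16.9 CPM, on only 4 and 9 reads. The interval of that basal to luminal fold, 0.0885 to 1.41, included 1. Among accessory subunits, Jarid2 and Mtf2, which help bring PRC2 to CpG-rich DNA, were higher in the embryonic gate. Jarid2 ran from 0 over 114.1 to 1549 CPM there, with a read in 90.6% of wells, against medians of 0 in both adult gates and reads in 18.5% of basal and 33.9% of luminal wells. It was 6.69-fold (6.38 to 7.02) above basal and 9.12-fold (8.68 to 9.59) above luminal cells. Mtf2, at 207, 65.5 and 93.1 CPM, was 3.17-fold (3.06 to 3.28) and 2.23-fold (2.17 to 2.29) higher, but level between the embryonic and luminal wells of 50 cells, at 106.1 and 99.5 CPM. Phf19 was at 0.612, 2.35 and 5.18 CPM with reads in 3, 3 and 1 wells, and without luminal well 80 it was not measured.

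By median the listed PRC1 genes differed less between embryo and adult than the listed PRC2 genes in single wells. The median log2 ratios were 0.88 against basal and 0.22 against luminal cells, where the PRC2 genes had 1.53 and 0.83. Cbx2, a reader of the PRC2 mark, was the exception, at 41.7 CPM with a read in 57 embryonic wells, 4.82 in 8 basal wells and 0.497 in 2 luminal wells. It was 8.64-fold (7.62 to 9.83) higher in embryonic than in basal cells, and the log2 ratio of 2.87 became 3.54 without basal well 57. Against luminal cells it was 83.8-fold (59.8 to 121.1) higher. No Cbx2 read was found in the adult wells of 50 cells, against 30 in the embryonic one. Cbx7, another reader, was at 8.48, 16.005 and 8.84 CPM, and its basal log2 ratio of -0.84 became -1.49 without embryonic well 30 and -1.21 without embryonic well 90. It had 0, 2 and 7 reads in the wells of 50 cells. Of the ubiquitin ligases, Rnf2 was 2.45-fold (2.35 to 2.56) above basal and 1.67-fold (1.61 to 1.73) above luminal cells, at 114.4, 46.7 and 68.6 CPM, while in the wells of 50 cells it was higher in the basal well, at 156 against 72.4 CPM. Ring1 stayed under 10 CPM in each gate, with 6 reads in the embryonic well of 50 cells and none in the adult ones. Bmi1, a core PRC1 subunit, was at 50.3, 35.6 and 42.98 CPM, and 1 well, basal 23, held its basal log2 ratio at 0.49 in place of 1.02, while the wells of 50 cells gave -1.93 on 9 embryonic and 35 basal reads.

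In single wells the heterochromatin genes were the other group that was nearly all higher in the embryonic gate. There 7 of 8 were at least 2-fold above basal cells (33.8% of all genes) and 7 of 8 above luminal cells (39.3%), at medians of 1.70 and 1.89. In the wells of 50 cells the medians were 0.91 against basal and 2.53 against luminal cells. Against the basal well only Cbx3, Cbx5 and Setdb1 stayed at least 2-fold higher. Cbx1, Trim28, Ehmt1 and Suv39h1 had log2 ratios of 0.45, 0.99, 0.78 and 0.74 there. Cbx5, which encodes HP1 alpha, ran from 0 over 357 to 4833 CPM in embryonic wells, with a read in 95.3% of them. Basal wells ran from 0 over 0 to 1846 and luminal wells from 0 over 0 to 949. The embryonic middle well therefore exceeded the adult middle wells, with overlap above them. The fold was 10.2 (9.86 to 10.6) against basal and 11.9 (11.5 to 12.3) against luminal cells on summed levels of 555, 54.2 and 46.6 CPM, but only 2.03 (1.60 to 2.59) against basal cells in the wells of 50 cells. Cbx1, for HP1 beta, was at 254.5, 76.1 and 66.8 CPM. Cbx3, for HP1 gamma, was at 19.5, 8.12 and 2.19 CPM; it has 8 named pseudogenes in the annotation, so its reads may be split and its level is uncertain.

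Trim28, the corepressor that zinc-finger proteins recruit, ran from 0 over 346 to 1729 CPM in embryonic, from 0 over 5.78 to 2265 in basal and from 0 over 23.6 to 1235 in luminal wells. Its folds were 2.80 (2.74 to 2.86) and 3.06 (3.00 to 3.12), and per kilobase it was the most abundant of the 38 genes in each gate, at 125.7, 44.8 and 41.1 CPM. Setdb1, the H3K9 methyltransferase that Trim28 brings in, was at 93.8, 27.99 and 27.7 CPM, 3.35-fold (3.17 to 3.54) and 3.39-fold (3.22 to 3.56) higher, and its luminal log2 ratio of 1.72 became 2.37 without luminal well 46. Suv39h1, which methylates H3K9 in constitutive heterochromatin, was at 68.6, 11.2 and 0.336 CPM with reads in 53, 8 and 2 wells. Basal well 3 held 88.5% of its basal reads; without it the embryonic to basal log2 ratio moved from 2.52 to 4.92 and the gene was not measured between the adult gates. The wells of 50 cells showed a smaller gap for Suv39h1, at 45.03, 26.6 and 11.3 CPM, and 14.5% of its exon bases overlap a gene on the opposite strand. Ehmt1, of the enzyme pair that dimethylates H3K9, was 3.27-fold (3.17 to 3.38) and 3.70-fold (3.59 to 3.82) higher in the embryonic gate. Its partner Ehmt2 was not, at 54.1, 38.005 and 68.7 CPM, and basal against luminal its log2 ratio of -0.84 became -1.21 without basal well 16.

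Deacetylase and NuRD genes lay near the all-gene shares of 33.8% and 39.3%, with 2 of 5 at least 2-fold higher against each adult gate. Their median log2 ratio against luminal cells was 0.56, where all genes had 0.58. Against basal cells it was 0.78, above the 0.38 of all genes. In the wells of 50 cells the medians were 1.22 against basal and 0.81 against luminal cells, where all genes had 0.21 and 0.66. Hdac2 was at 218, 44.97 and 65.5 CPM, with medians of 112.8, 0 and 0 over single wells, 4.86-fold (4.66 to 5.07) above basal and 3.33-fold (3.23 to 3.44) above luminal cells. Its paralogue Hdac1 was under 2-fold in each comparison of single wells, at 111.8, 64.9 and 115.6 CPM, where without basal well 82 its embryonic to basal log2 ratio of 0.78 became 1.16 and its basal to luminal ratio of -0.82 became -1.20, the latter also -1.03 without basal well 1. The wells of 50 cells had 24 embryonic, 0 basal and 17 luminal reads of Hdac1. Mbd3, a NuRD subunit that resembles methyl-CpG binding proteins, stood at the 2-fold line against basal cells, with a ratio of 1.00 that ran from 0.92 to 1.24 with 1 well left out. Against luminal cells it was 2.65-fold (2.56 to 2.74) higher. Chd4, the NuRD remodeller, and Kdm1a, the demethylase LSD1, were within 1.5-fold in each comparison of single wells, at 214.5, 180 and 145 CPM and at 151, 135.6 and 110.9 CPM. Kdm1a was at 70.8 CPM in the embryonic and 29.9 in the basal well of 50 cells.

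Of the nucleosome remodellers, Smarca4 and Smarcc1, subunits of SWI/SNF, were higher in the embryonic gate in both libraries. Smarcc1 ran from 0 over 240 to 1481 CPM in embryonic wells, against medians of 0 in basal and 2.18 in luminal wells, and was 3.05-fold (2.97 to 3.14) and 5.05-fold (4.90 to 5.21) higher. Smarca4, at 289, 136.1 and 70.3 CPM, was 2.12-fold (2.07 to 2.18) and 4.11-fold (3.99 to 4.24) higher, and its basal to luminal log2 ratio of 0.94 reached 1.00 or more without any 1 of 5 luminal wells. The wells of 50 cells gave Smarca4 the opposite sign between the adult gates, a log2 ratio of -1.20 on 10 basal and 21 luminal reads. Arid1a, at 342, 136.03 and 163 CPM, was 2.51-fold (2.45 to 2.58) and 2.10-fold (2.05 to 2.14) higher. In the wells of 50 cells its embryonic level was only 1.26-fold (0.990 to 1.61) above the basal one and 3.32-fold (2.34 to 4.81) above the luminal one. Smarca5, the ISWI motor, was 2.25-fold (2.18 to 2.32) above basal but 1.42-fold (1.38 to 1.45) above luminal cells, with medians of 113.9, 1.61 and 76.997 CPM, and the basal well of 50 cells was above the embryonic one at 176 against 150 CPM. Chd7 was at 50.05, 64.2 and 39.2 CPM, under 2-fold in each comparison of single wells, whereas the wells of 50 cells, at 16.1, 91.4 and 48.8 CPM, gave log2 ratios of -2.43 against basal and -1.54 against luminal cells.

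In shares of wells at equal depth the embryonic gate was the highest for 33 of the 38 members, all but Eed, Ezh1, Phf19, Cbx7 and Ring1, and for 58.6% of the 13393 genes measured in any comparison. Dnmt3a was detected in 81.9% of embryonic wells (95% Clopper-Pearson interval 74.1 to 88.2), against 25.0% of basal and 19.6% of luminal wells. For Uhrf1 the shares were 44.9% (36.05 to 53.96), 0.926% and 0 (0 to 3.24); by the count of 3 wells that a share of 0 is read with, the last allows up to 2.68%. Ezh2 was detected in 51.97%, 13.9% and 8.04% of wells, and Cbx5 in 74.02%, 13.9% and 13.4%. Genes of another gate are given beside the shares, since their reads could come from carry-over between wells. H19, an imprinted embryonic transcript, was detected in 1 basal and 1 luminal well (0.926% and 0.893%), the milk protein gene Csn3 in 7.41% of basal wells and the smooth muscle gene Acta2 in 7.14% of luminal wells. The adult shares of Uhrf1, Hells, Dnmt3b and Suv39h1 were at or under that of H19. In basal wells 13 of the 38 members, Dnmt1 and Eed among them, were at or under Csn3. In luminal wells 12, Jarid2 and Tet1 among them, were at or under Acta2. Csn3 was at 5521 CPM in the luminal and Acta2 at 9455 CPM in the basal gate, above every member there. Their shares therefore set no floor for the members, and member shares under them do not tell expression from carry-over. Cells of another type in a gate were not told apart from carry-over either. The adult shares of Dnmt3a and Trim28 were above those of all 3 genes, and the luminal share of Ezh2, 8.04%, was close to that of Acta2. Chd4 and Smarca5 were detected in 50.9% of luminal wells, close to their embryonic 59.8% and 58.3% and above the basal 29.6% and 23.1%.

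**Figure D4:**
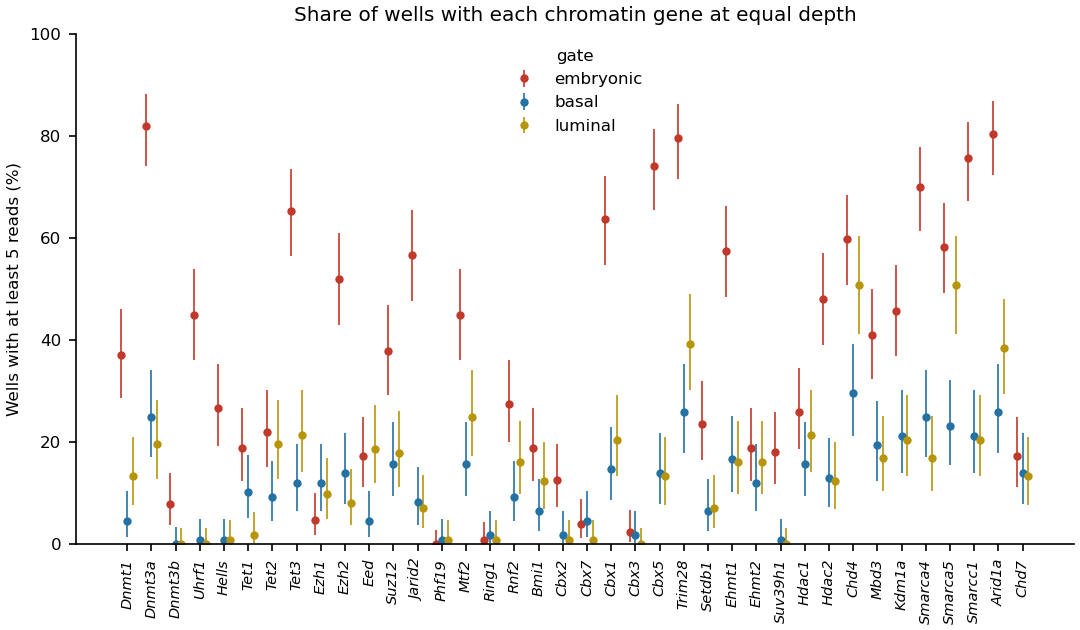
Share of kept wells (vertical axis, %) in which each of the 38 genes had at least 5 reads after thinning every well to 50000 reads, for the embryonic, basal and luminal gates. Points are shares and lines exact Clopper-Pearson 95% intervals for counting error; the embryonic share of Dnmt3a is 81.9% and of Trim28 79.5%, and the luminal shares of Chd4 and Smarca5 are 50.9%.

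The cell cycle differed between the gates in the same direction as these genes. The 18 listed S phase genes summed to 2075, 415 and 399 CPM in the embryonic, basal and luminal gates, and 20 genes of G2 and mitosis to 1922, 214 and 43.9 CPM. Mcm6, of the replicative helicase, was 18.02-fold and Top2a, a topoisomerase of dividing cells, 250-fold higher in embryonic than in basal cells. Mki67 and Pcna, of the same lists, were 6.33-fold and 4.455-fold higher. Against luminal cells the folds were 5.69 for Mcm6, 110 for Top2a, 179 for Mki67 and only 1.47 for Pcna. The part of cycling in the differences between gates was not tested, and age, tissue, mouse line and cycling cannot be told apart between the gates. Within the embryonic gate, each member at 20 CPM or more was correlated over the kept wells with the summed S phase genes. The 34 members had a median Spearman rho of 0.15, where 8001 genes had a median of 0.09 and 5% of them exceeded 0.29. These points share library depth and zeros, so weak values show little, and they are given as a description.

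The 3 highest members with S phase were the maintenance genes Hells at 0.54, Dnmt1 at 0.48 and Uhrf1 at 0.45, above 99.8%, 99.5% and 99.3% of genes. They were 0.56, 0.54 and 0.52 over the 100 embryonic wells left without those in doubt. Dnmt1 also followed the number of genes with a read in a well, at 0.54, where Uhrf1 was at 0.38 and Hells at 0.28. Bmi1, Setdb1 and Hdac2 also exceeded 0.29, at 0.31, 0.30 and 0.30, and Ezh2 was at 0.26. With G2 and M genes Uhrf1 led at 0.51, followed by Suv39h1 at 0.38, Hells at 0.35, Dnmt1 at 0.34, Suz12 at 0.32 and Ehmt1 at 0.30. Dnmt3a, at 0.06 with S phase and -0.10 with G2 and M, Dnmt3b, at -0.04 and 0.12, and Jarid2, at -0.20 and 0.05, had lower values. Ezh1 was at 0.02 and -0.18.

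**Figure D5:**
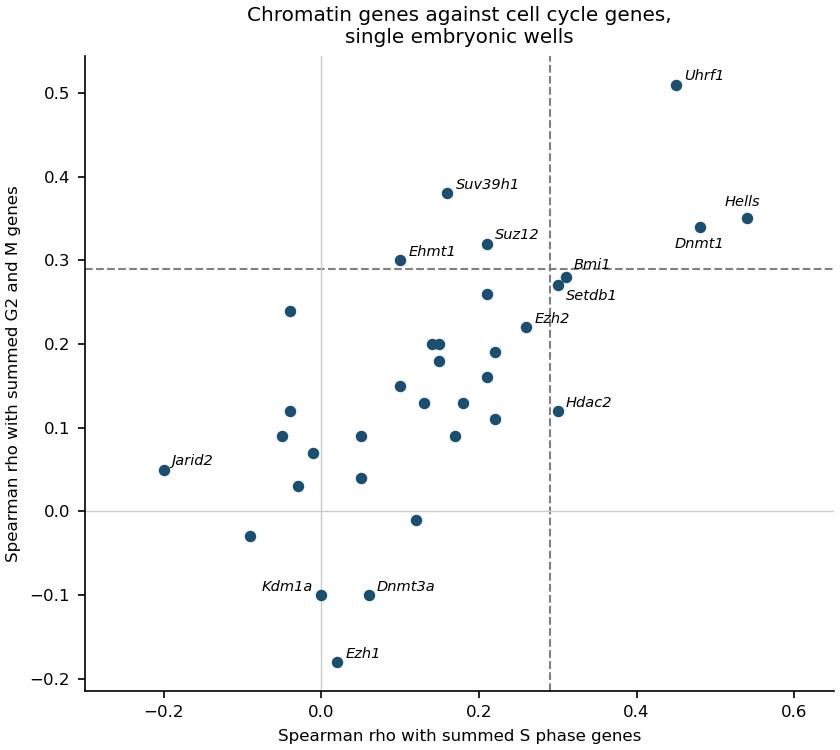
Spearman rho over the kept single embryonic wells of each of 34 chromatin genes with the summed CPM of 18 S phase genes (horizontal axis) and of 20 G2 and M genes (vertical axis). Points are genes and dashed lines the value that 5% of all genes exceed, 0.29 on both axes; Hells, Dnmt1 and Uhrf1 lie beyond both lines, and Dnmt3a and Jarid2 do not.

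Pooled, the other chromatin genes had smaller shares at least 2-fold higher in the embryonic gate than the 38, but not in each complex. Of the further chromatin genes measured against basal cells, 45 (38.5%) were at least 2-fold higher in the embryonic gate, with 7 lower and a median log2 ratio of 0.72. Against luminal cells 55 (47.4%) were higher and 7 lower, with a median of 0.96. Both shares were nearer to those of all genes, 33.8% and 39.3%, than the shares of the 38 were. The largest group of them, 34 further remodellers, had 11 of 32 measured genes (34.4%) higher than in basal cells and 16 of 31 (51.6%) higher than in luminal cells, with 1 lower in each. For PRC1 the further genes had a larger share against luminal cells than the listed ones, with 13 of 16 measured (81.2%) at least 2-fold higher in the embryonic gate against 1 of 5, while against basal cells they had 5 of 17 higher and 3 lower. Examples against basal cells were Chd3, a NuRD remodeller, at 123.05 against 11.4 CPM, Smarcd2, a SWI/SNF subunit, at 134.45 against 13.97 CPM, and Zfp462, a zinc-finger partner of H3K9 methylation, at 163 against 18.97 CPM. Their log2 ratios in the wells of 50 cells were 2.47, 1.65 and 3.41. Others reversed there, such as Lcor, from 3.39 to -1.92, and Pcgf6, from 3.20 to -0.37. List medians against basal cells in those wells were -0.32 for further PRC2 genes, -0.22 for further deacetylase genes and -0.33 for H3K4, H3K27 and H3K36 enzymes. The other lists had 0.25 to 0.73, where all genes had 0.21. Between the adult gates 22 (19.5%) were higher in basal cells and 19 (16.8%) lower, where 28.3% and 21.3% of all genes were.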

How the data were processed

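RNA was measured in 384 wells of sorted mouse mammary cells. Per the labels' protocols, Smart-seq2 was modified for small volumes, cDNA with ERCC spike-ins went through 24 cycles of amplification, and Nextera XT made the libraries. The deposited table holds counts of reads for each gene in each well. The submitters' processing notes name GRCm38, HTSeq 0.6.0, STAR 2.5.2b and cutadapt 1.13. Strand mode, options and gene annotation: not given in the sources used here. Reads of overlapping genes may therefore be shared.

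Wells were grouped by sort label, and 1 well was left out because its title says luminal and its sort label embryonic. Identifiers were matched to GENCODE M21, 49326 of 49585, of which 5577 without the version. Single wells with under 50000 gene reads were dropped, which left 127 of 137 embryonic, 108 of 118 basal and 112 of 121 luminal wells, spike-ins stayed out of gene totals, and no doublet caller was run. Reads were summed per gate and scaled to CPM, log2 ratios had a prior of 1 CPM, a gene counted as measured when 1 of the gates reached 5 CPM, and 2-fold was the call. Intervals are exact conditional (folds) or Clopper-Pearson (shares), and a share of 0 is given with the limit that 3 wells allow. Exon lengths are unions over transcripts. Analyses used Python 3.11.15 with numpy 2.4.6, pandas 2.3.3 and scipy 1.17.1, and were tested on simulated data. Wells are numbered in accession order, which names them only.

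The members and gene lists were chosen with earlier results of these data known, and no p-value was computed. All members are described; of the other chromatin genes, those named are among the 3 per list and comparison with the largest log2 ratio among genes at 20 CPM or more. Of those 124 listed genes 123 were matched, all but Ezhip, and 117, 116 and 113 were measured against basal, against luminal and between the adult gates. The wells that decide Ezh1 are basal 2, 10, 32, 40, 88, 93, 94 and 113, and those for Smarca4 are luminal 10, 18, 48, 86 and 117. Alternatives were other cell filters, depth thinning, scalings, minimum levels, priors, plate rows, the wells of 50 cells, wells in doubt and wells left out in turn.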

Additional observations from a re-analysis of the deposited data

How the results depend on the processing

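No paired analysis was possible because the results come from no test and the labels give the gates no shared replicate numbers. With 1 sample per gate, spread between animals is unknown, and 5 reads of 50000 is a level that only abundant transcripts reach. The 25 and 23 members higher in the embryonic gate stayed within 1.5 times of these counts under every alternative tried, with 24 to 25 and 23 to 24 when a well was left out. The share of all genes moved with the scaling. Against basal cells the count ran from 19 with the median of ratios (26.7% of all genes) to 33 with spike-in reads as total (71.1%). Against luminal cells it ran from 19 with the median of ratios (28%) to 27 with spike-in reads (52.9%).

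The other counts were small and moved. Members lower than in basal cells (1) were 2 after thinning, with TMM, with the median of ratios, without a minimum level, in plate rows with both gates and without mismatched wells, 4 in the wells of 50 cells, 0 with a prior of 5 CPM, without wells in doubt and with spike-in reads as total, and 0 to 2 with a well left out. Members lower than in luminal cells (1) were 2 in the wells of 50 cells and with TMM, 3 with the median of ratios and in plate rows, 0 at a minimum of 20 CPM, with a prior of 5 CPM and with spike-ins, and 0 to 2 with a well left out. Basal against luminal, the 5 higher were 14 in the wells of 50 cells, 3 at 20 CPM, 13 in plate rows, 9 without wells in doubt and 2 with spike-ins, and the 2 lower were 8, 4 in plate rows, 5 without mismatched wells or wells in doubt, 13 with spike-ins and 1 to 4 with a well left out.

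TMM moved the all-gene median against basal cells from 0.38 to 0.04 and spike-ins moved it to 1.75 (1.10 against luminal cells), while the member median less that median stayed at 1.09 and 0.94. With spike-ins the member median was 2.70 against basal cells and -0.64 basal against luminal, where the wells of 50 cells gave 0.85; that median less the all-gene one, 0.04, ran from -0.0299 to 0.0824 with a well left out. Called members reversed in the wells of 50 cells were Tet3 (-0.17), Rnf2 (-1.10) and Smarca5 (-0.23) against basal cells, Phf19 (2.89) against luminal cells, and Dnmt3a (-0.51) and Ezh2 (-2.41) basal against luminal; Ezh1 reversed with spike-ins (0.26). Counting 1 read as detection, the median member was found in 57.1% of embryonic, 22.2% of basal and 28.6% of luminal wells; at 10 reads it was 26.8%, 7.41% and 8.04%, and unthinned 61.4%, 23.1% and 30.8%. The causes were not tested.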
